A study of Rattus norvegicus with 8 samples.

Results

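Genes that mark injured and regrowing nerve cells, 10 in all, were followed in the dorsal spinal cord: Atf3, Sox11, Gadd45a, Gap43, Stmn2, Sprr1a, Gal, Vip, Reg3b and Reg3g. Members were the probe sets with 1 platform gene symbol, older or current, that matched one of these 10 names. That rule found 9 of the 10, each with 1 probe set, among 14506 genes with 1 symbol. No probe set was listed under Sprr1a, which encodes a small proline-rich protein known from regenerating sensory neurons, and it has no value here. The study asked how histone deacetylase inhibition alters pain after nerve damage. It used adult male Wistar rats with a transected L5 spinal nerve, and took the lumbar dorsal cord of the injured side 14 days after injury. In the HDACi group, 4 rats received MS-275, a class I selective histone deacetylase inhibitor, at 30 nmol per day from an osmotic pump into the intrathecal space. In the vehicle group, 4 rats received the solvent, dimethyl sulfoxide in saline. Both groups carried the injury and a catheter, and no uninjured cord was analysed here. The arrays therefore compare injured with injured tissue, and a member's level cannot be set against its level before injury.

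When a peripheral nerve is cut, the damaged sensory and motor neurons switch on a regeneration programme. Transcription factors such as Atf3 and Sox11 are induced in their cell bodies, followed by growth cone proteins such as Gap43 and Stmn2 and by the peptides galanin and VIP. The cell bodies of sensory neurons lie in the dorsal root ganglion, outside the cord, and send axons into the dorsal horn. Those of motor neurons lie in the ventral horn, beneath the tissue sampled here. Dorsal horn neurons also make some of these transcripts, among them Gap43, Stmn2 and Gal, without injury.

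Values are the deposited log2 signals after RMA, so that a difference of 1 is a doubling of signal. Array medians lay between 7.95 and 7.98 and correlations between arrays between 0.993 and 0.997. Markers of dorsal horn and other neurons were abundant, with Snap25 near the top of the scale at a mean of 13.6 in vehicle arrays. Of 8 listed Hox genes of lumbar position 3 were measured, and all 3 had differences below 0 (HDACi minus vehicle). Their mean ran from 9.35 to 9.797 with HDACi and from 9.802 to 9.94 with vehicle, so the groups nearly touched. For each of the 3 genes taken alone the groups overlapped. Hoxd10 was at 9.80 on HDACi replicate 2 against 10.55 to 10.98 on the other arrays, with a difference of -0.43 (unadjusted p = 0.0488 from limma). It was the 1 of the 3 lower at an unadjusted p under 0.05, beside 4.96% of all genes. The part of cord level in the members' differences was not tested. Olfactory receptor genes, which the cord is not known to use, served as a guide to background. The 95th percentile of their mean signals was 6.93 over 1105 genes. By their mean over all arrays, 7 of the 9 members lay above it. Reg3b, at 7.24, did so only through some arrays, since 4 of its 8 arrays and its HDACi mean of 6.86 lay below. Vip, at a mean of 6.48 over all arrays, and Reg3g, at 6.12, did not, so neither is shown to lie above background.

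Reg3g was the only member past the study's threshold, an unadjusted p under 0.01 in limma, and was higher with HDACi. Gadd45a was 1.22-fold lower with an unadjusted p under 0.05. In all, the difference was below 0 for 7 of the 9 members, as for 57.9% of all genes, and above 0 for 2, as for 42.1% of all genes. The median difference was -0.10, against -0.01 over all genes. No member passed adjustment over 14506 genes, and neither did any other gene (0%). At an unadjusted p under 0.01, 1 of the 9 members was called beside 1.46% of all genes. At an unadjusted p under 0.05, 2 of the 9 were called beside 7.75% of all genes. Gadd45a was the 1 called lower, beside 4.96% of all genes, and Reg3g the 1 called higher, beside 2.79%. The groups did not overlap for 1 of the 9, beside 5.02% of all genes, and for no member did all HDACi arrays lie below all vehicle arrays, beside 3.6%. The study listed Reg3g at this threshold on the same arrays, so its pass is the same measurement and not further evidence.

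**Figure D1:**
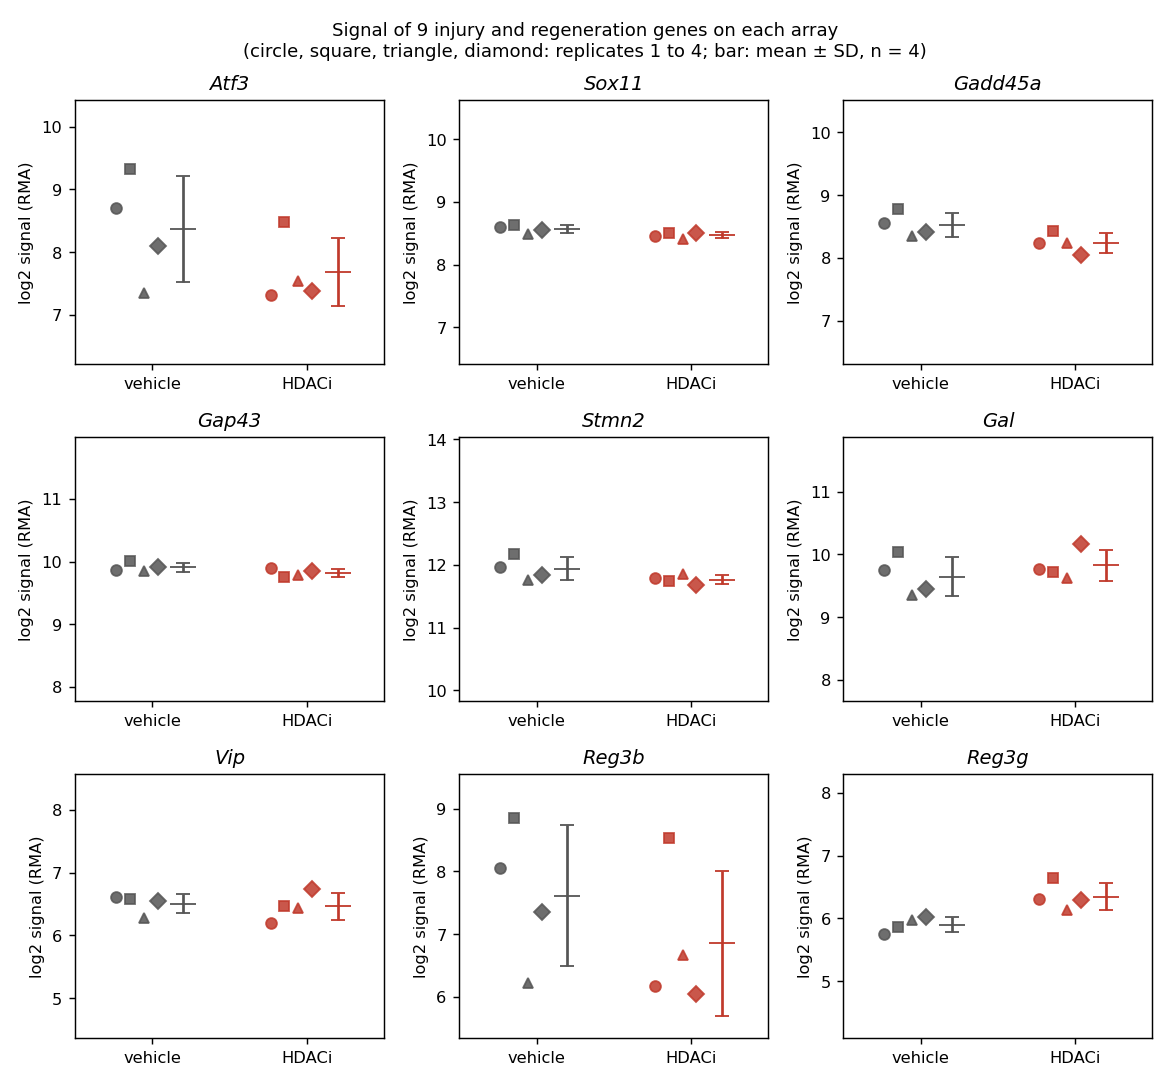
Log2 signal (y axis, the same span in every panel) of the 9 measured genes on the vehicle arrays (grey) and HDACi arrays (red), 1 point per array (circle, square, triangle and diamond for replicates 1 to 4), with the mean ± SD of 4 arrays beside them. Reg3g is the only gene whose groups do not overlap, and the arrays of Atf3 and Reg3b spread over 2.02 and 2.81 log2 units.

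Atf3 is a stress-induced transcription factor of the ATF/CREB family and the most widely used marker of a damaged neuron. Its log2 signal was 7.31, 8.47, 7.55 and 7.38 on HDACi arrays 1 to 4. On vehicle arrays 1 to 4 it was 8.70, 9.33, 7.34 and 8.09. Vehicle replicate 3 lay below 3 of the HDACi arrays, and HDACi replicate 2 lay above vehicle replicates 3 and 4, so the groups overlapped. The means were 7.68 ± 0.54 (SD, n = 4) with HDACi and 8.37 ± 0.85 with vehicle. The difference was -0.69 (standard error 0.40, 95% confidence interval -1.60 to 0.22; unadjusted p = 0.121 and adjusted p = 0.713 from limma). An exact two-sided permutation test over the 70 assignments of arrays gave p = 0.229, where the least that 4 against 4 allow is 0.0286. The interval spans a fall to well under the vehicle level as well as a rise. Leaving out single arrays moved the difference from -0.37 to -1.03. The first was without vehicle replicate 2 (unadjusted p = 0.329 from limma) and the second without vehicle replicate 3 (unadjusted p = 0.0154 from limma). Without HDACi replicate 2 the unadjusted p was 0.0394.

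Sox11, a transcription factor of the SoxC group that promotes axon growth in sensory neurons, varied far less. It read 8.45, 8.51, 8.40 and 8.50 on the HDACi arrays. On the vehicle arrays it read 8.60, 8.64, 8.49 and 8.55. Vehicle replicate 3 alone lay within the HDACi range. The difference was -0.10 (standard error 0.05, 95% confidence interval -0.21 to 0.00; unadjusted p = 0.0562 from limma). The exact permutation p was 0.0857. With each array left out, the unadjusted p from limma ran from 0.0276, without vehicle replicate 3, to 0.148, without HDACi replicate 3. It was 0.0486 without HDACi replicate 2 and 0.137 without vehicle replicate 2.

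Gadd45a encodes a stress protein induced by DNA damage and by axotomy. Its signal was 8.24, 8.43, 8.23 and 8.04 on the HDACi arrays. On the vehicle arrays it was 8.55, 8.78, 8.34 and 8.41. HDACi replicate 2 lay just above vehicle replicates 3 and 4, and the other HDACi arrays lay below all vehicle arrays. The difference was -0.29 (standard error 0.11, 95% confidence interval -0.53 to -0.05; unadjusted p = 0.0228 and adjusted p = 0.626 from limma), with an exact permutation p of 0.0857. Without HDACi replicate 4 or without vehicle replicate 2 the unadjusted p was 0.0674 and 0.0553.

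Gap43, a membrane protein of growth cones, had signals of 9.89, 9.75, 9.78 and 9.84 with HDACi. With vehicle they were 9.87, 10.01, 9.85 and 9.92. The difference was -0.09 (standard error 0.05; unadjusted p = 0.102 from limma), and -0.06 without vehicle replicate 2. Stmn2, a stathmin that regulates microtubules in growing axons, read 11.79, 11.74, 11.85 and 11.69 with HDACi. With vehicle it read 11.97, 12.18, 11.76 and 11.84. The difference was -0.17 (standard error 0.09, 95% confidence interval -0.36 to 0.02; unadjusted p = 0.0766 from limma). It was -0.09 (unadjusted p = 0.193) without vehicle replicate 2 and -0.23 (unadjusted p = 0.0215) without vehicle replicate 3. In both growth cone genes vehicle replicate 2 was the highest of the 8 arrays, and the groups overlapped.

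Galanin (Gal), a peptide that modulates spinal pain transmission, had signals of 9.77, 9.73, 9.63 and 10.17 with HDACi. With vehicle they were 9.75, 10.03, 9.36 and 9.45. The highest array of each group, HDACi replicate 4 and vehicle replicate 2, carried much of the spread. The difference was 0.18 (standard error 0.16, 95% confidence interval -0.18 to 0.54; unadjusted p = 0.291 from limma), and it was 0.06 without HDACi replicate 4, 0.08 without vehicle replicate 3, 0.11 without vehicle replicate 4 and 0.31 (unadjusted p = 0.0563) without vehicle replicate 2. Vip, the gene of vasoactive intestinal peptide, read 6.20, 6.47, 6.44 and 6.73 with HDACi. With vehicle it read 6.61, 6.58, 6.28 and 6.55, levels among those of olfactory receptors. The difference was -0.05 (standard error 0.11; unadjusted p = 0.686 from limma), and its sign changed to 0.04 without HDACi replicate 1.

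Reg3b and Reg3g encode secreted C-type lectins of the Reg family, known from inflamed pancreas and gut and from injured neurons. Reg3a, another member of the family, lies between them on chromosome 4. The 250 bases before the start site of each gene are shown, because the pair differed in behaviour on these arrays, together with those of Gadd45a. They come from RefSeq (GRCr8), which gave a window for 7 of the 10 genes and none for Atf3, Gap43 and Stmn2. Capitals mark matches on either strand to a cyclic AMP response element core (TGACGT), an AP-1 site (TGANTCA), a SOX site (ACAAAG) or a STAT site (TTCNNNGAA), the last added after the values were seen.
Reg3b, chr4:112419526-112419775, plus strand: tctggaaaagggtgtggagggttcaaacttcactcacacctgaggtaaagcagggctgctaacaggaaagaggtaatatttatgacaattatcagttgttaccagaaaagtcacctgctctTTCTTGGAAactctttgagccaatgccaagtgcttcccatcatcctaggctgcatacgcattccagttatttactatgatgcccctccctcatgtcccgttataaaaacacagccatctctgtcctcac
Reg3g, chr4:112484739-112484988, minus strand: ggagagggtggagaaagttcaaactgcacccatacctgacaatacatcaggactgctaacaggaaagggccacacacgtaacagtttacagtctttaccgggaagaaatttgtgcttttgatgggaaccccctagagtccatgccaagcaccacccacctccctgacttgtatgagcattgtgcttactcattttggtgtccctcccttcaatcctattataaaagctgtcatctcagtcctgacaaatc
Gadd45a, chr4:97486800-97487049, minus strand: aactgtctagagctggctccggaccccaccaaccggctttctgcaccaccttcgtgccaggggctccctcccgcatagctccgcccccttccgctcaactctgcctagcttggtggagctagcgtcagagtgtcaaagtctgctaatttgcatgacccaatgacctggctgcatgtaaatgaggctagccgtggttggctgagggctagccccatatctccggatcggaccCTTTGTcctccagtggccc
The STAT letters occurred in the Reg3b window, at bases 129 to 121 before the start, and not in that of Reg3g. They occurred in 7.67% of 33469 promoters. The SOX letters occurred in the Gadd45a window, as in 16.3% of all promoters. The cyclic AMP response element core, present in 6.95% of promoters, was found among the members in the window of Vip. The AP-1 site, present in 6.34%, was found in that of Sprr1a. A match of letters does not show that a factor binds.

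Reg3g had signals of 6.31, 6.64, 6.13 and 6.29 with HDACi. With vehicle they were 5.74, 5.87, 5.97 and 6.01. The lowest HDACi array exceeded the highest vehicle array, as was so for 1.42% of all genes. The means were 6.34 ± 0.22 (SD, n = 4) and 5.90 ± 0.12. The difference was 0.44 (standard error 0.10, 95% confidence interval 0.21 to 0.68, 1.36-fold; unadjusted p = 0.00192 and adjusted p = 0.610 from limma), with an exact permutation p of 0.0286, the smallest possible. It ran from 0.34, without HDACi replicate 2, to 0.51, without HDACi replicate 3, and the unadjusted p stayed under 0.01 with each array left out. Both group means lay under the 95th percentile of olfactory receptors, so the ratio rests on signals not shown to exceed background.

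Reg3b behaved otherwise. Its signals were 6.17, 8.54, 6.67 and 6.04 with HDACi. With vehicle they were 8.05, 8.85, 6.22 and 7.35. The arrays spanned 2.81 log2 units, each group held high as well as low arrays, and the low ones were under the background guide, where the span is not a measured ratio. The difference was -0.76 (standard error 0.64, 95% confidence interval -2.21 to 0.69; unadjusted p = 0.267 from limma), smaller than the SD within groups of 1.14. It was -0.35 without vehicle replicate 2 (unadjusted p = 0.594 from limma) and -1.23 without vehicle replicate 3. Without HDACi replicate 2 it was -1.32 (unadjusted p = 0.0353 from limma). The arrays high for Reg3b (vehicle replicates 1 and 2, HDACi replicate 2) were not those highest for Reg3g on the vehicle side. Of the relatives of both lectins and of Sprr1a, 7 of 14 listed genes were measured, and 4 of these were not above background. Differences were above 0 for 0 of the 7, beside 42.1% of all genes, and none passed at an unadjusted p under 0.01. Reg3a, also near background, had -0.17 (unadjusted p = 0.0337 from limma). It was the 1 of the 7 lower at an unadjusted p under 0.05, beside 4.96% of all genes.

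**Figure D2:**
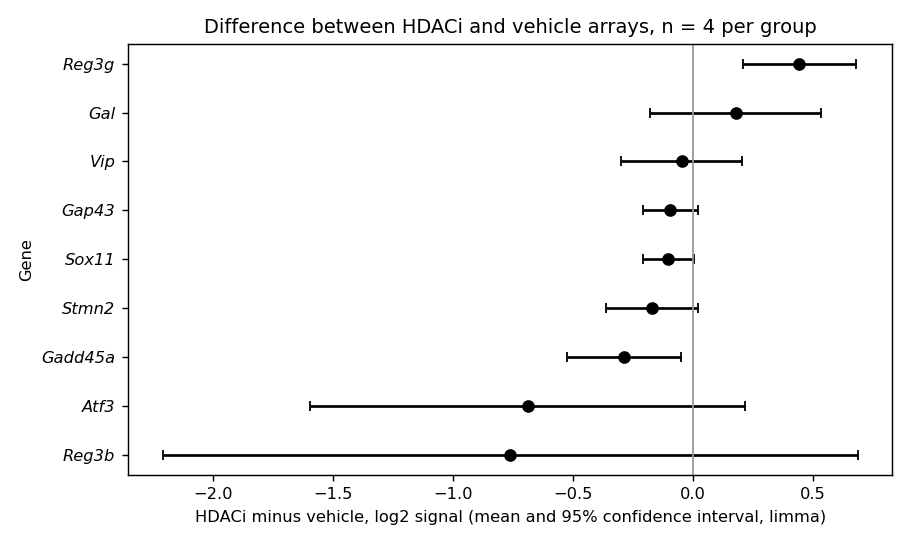
Difference in mean log2 signal, HDACi minus vehicle, for each gene (x axis), with the 95% confidence interval from limma (bars, n = 4 per group). The intervals of Reg3g, from 0.21 to 0.68, and Gadd45a, from -0.53 to -0.05, exclude 0, and those of Reg3b and Atf3 are the widest.

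The members differed most in how much they varied between rats of 1 group. The SD within groups was 1.14 for Reg3b and 0.71 for Atf3, at the 99.9th and 99.7th percentile of all genes, whose median was 0.09. Gal followed with 0.27, at the 97.8th percentile. Gap43 (0.07) and Sox11 (0.06) stood at the 31.8th and 21.9th percentile. For 4 of the 9 genes, Atf3, Gal, Vip and Reg3b, the difference between groups was smaller than this SD. Vehicle replicate 2 was the highest of the 8 arrays for 6 of the 9 genes, and vehicle replicate 3 was the lowest vehicle array for 8 of the 9.

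**Figure D3:**
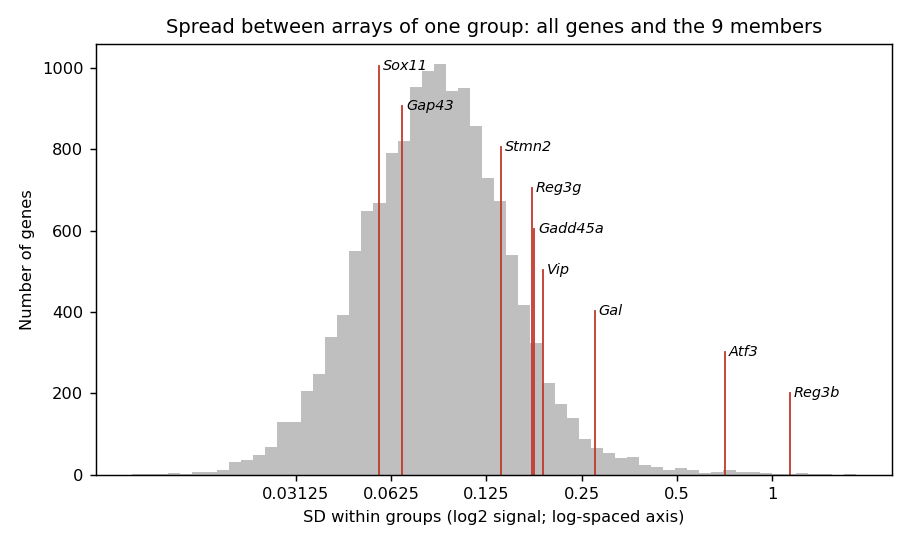
Number of genes (y axis, grey) by SD within groups of the log2 signal (x axis, log-spaced) over 14506 genes, with red lines at the 9 members. Line heights only separate the names. Reg3b and Atf3 lie in the right tail, and Sox11 and Gap43 left of the median of 0.09.

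Several members varied together from rat to rat. Of the 36 pairs of members, 28 had a positive correlation over the 8 arrays, and 4 passed an exact permutation test of Pearson's r after adjustment over the pairs. No pair passed by Spearman's rho after adjustment. Atf3 and Reg3b gave r = 0.965 (exact permutation p = 0.000546, adjusted p = 0.0143) and rho = 0.905 (exact permutation p = 0.00456, adjusted p = 0.0821). Without vehicle replicates 1 and 2, the 2 arrays farthest from the median of Atf3, r was 0.983, and with the group means removed it was 0.970. Atf3 and Gadd45a gave r = 0.911 (exact permutation p = 0.000794, adjusted p = 0.0143) and rho = 0.810 (exact permutation p = 0.0218), with r = 0.697 without the same arrays. Gadd45a and Reg3b gave r = 0.863 (exact permutation p = 0.00238, adjusted p = 0.0286) and rho = 0.905 (exact permutation p = 0.00456), with r = 0.779 without vehicle replicate 2 and HDACi replicate 4. Gadd45a and Stmn2 gave r = 0.874 (exact permutation p = 0.00461, adjusted p = 0.0415) and rho = 0.595 (exact permutation p = 0.132). That relation rested on vehicle replicate 2 and HDACi replicate 4, without which r was 0.515. All values of an array share 1 RNA sample and its normalization.

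The genes of the whole table closest in pattern to each member over the 8 arrays were sought for the 7 members above background, by Pearson's r. As the 3 highest of all genes, they have a high r in part through that choice. Genes with r over 0.9 numbered from 15 for Gal to 85 for Reg3b. For Stmn2 they were Chodl (r = 0.987), a lectin of motor neurons, the neuronal tubulin Tubb3 (0.982) and Vwa7 (0.982). For Reg3b they were the annexin Anxa2 (r = 0.980), osteopontin (Spp1, 0.978) and the acute-phase protease inhibitor Serpina3n (0.976). For Atf3 they were the claudin Cldn4 (0.994), the olfactory receptor Or6k14b (0.990) and Gpx7 (0.978). Gadd45a was closest to Cpg1 (0.973), the repellent guidance gene Sema3a (0.972) and the olfactory receptor Or8b12c (0.967). Sox11 was closest to importin beta (Kpnb1, 0.994), Rab1b (0.985) and Med10 (0.979). Gap43 was closest to Dyrk3 (0.970), Ppid (0.967) and Cdc27 (0.965), and Gal to Atp13a1 (0.951), Zfp365 (0.947) and Nars2 (0.931).

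Some members moved over the arrays with markers of cells outside the dorsal horn. Of 11 listed motor neuron markers 9 were measured, 8 of them with a difference below 0, beside 57.9% of all genes, and with a median of -0.23. Isl2, the choline transporter Slc5a7 and Chodl, 3 of the 9, were lower at an unadjusted p under 0.05 from limma, beside 4.96% of all genes. None was under 0.01. The mean of the list ran from 7.95 to 8.43 on the HDACi arrays and from 8.25 to 9.30 on the vehicle arrays. The vesicular acetylcholine transporter Slc18a3, which defines cholinergic neurons, read 7.31, 8.07, 8.38 and 6.98 with HDACi. With vehicle it read 9.24, 10.09, 7.41 and 8.28. Slc5a7 read 8.76, 8.76, 9.25 and 8.54 with HDACi. With vehicle it read 9.75, 10.49, 9.05 and 9.0. Their differences were -1.07 for Slc18a3, -0.75 for Slc5a7 and -1.17 for Chodl. Vehicle replicates 1 and 2 were thus highest for both markers as they were for Atf3, Gadd45a and Stmn2. Of the other markers, Isl2 and Mmp9 were not above background.

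Over the 8 arrays the motor neuron mean gave r = 0.978 with Stmn2 (exact permutation p = 0.000422, adjusted p = 0.0352 over 99 relations of 9 members with 11 cell type lists) and rho = 0.905 (exact permutation p = 0.00456, adjusted p = 0.152). With Gadd45a it gave r = 0.933 (exact permutation p = 0.000893, adjusted p = 0.0352) and rho = 0.738 (exact permutation p = 0.0458). With Atf3 it gave r = 0.886 (exact permutation p = 0.00228, adjusted p = 0.0452) and rho = 0.833 (exact permutation p = 0.0154). Without vehicle replicates 1 and 2 these r were 0.860, 0.773 and 0.515, so that with Atf3 rested in large part on those arrays. With the other members the motor neuron mean gave r = 0.786 for Reg3b, 0.747 for Sox11 and 0.602 for Gap43. It gave 0.256 for Vip, 0.143 for Gal and -0.633 for Reg3g, and none of these passed adjustment. Of the 99 relations 5 passed by Pearson's r and none by Spearman's rho after adjustment. The part of motor neuron RNA in the members' differences was not tested. In bulk tissue, fewer cells of a type and less RNA per cell cannot be told apart.

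The other 2 of those 5 relations were those of the sensory neuron list with Stmn2 (r = 0.90, exact permutation p = 0.00107, adjusted p = 0.0352; rho = 0.881, exact permutation p = 0.00724) and Gadd45a (r = 0.911, exact permutation p = 0.00159, adjusted p = 0.0393; rho = 0.810, exact permutation p = 0.0218). Without vehicle replicate 2 and HDACi replicate 4 these r were 0.746 and 0.710. The sensory neuron list gave r = 0.899 with Atf3 (exact permutation p = 0.00305, adjusted p = 0.0503; rho = 0.857, exact permutation p = 0.0107), which did not pass adjustment. Without the same arrays this r was 0.807. The motor and sensory neuron lists are not separate, since both hold Prph and Nefh. Of 18 listed sensory neuron markers 15 were measured, and 5 of these were not above background. Differences were above 0 for 4 of the 15, beside 42.1% of all genes. At an unadjusted p under 0.05, 1 of the 15 was lower, beside 4.96% of all genes. That was Isl1, with a mean not above background and a difference of -0.23 (unadjusted p = 0.0436 from limma). Th had -0.33 (unadjusted p = 0.0519 from limma). The list mean ran from 7.34 to 7.63 with HDACi and from 7.45 to 8.0 with vehicle. It averages signals without scaling, so the markers that varied most weigh most in it. These were Calca (SD 1.44 with HDACi and 1.97 with vehicle) and Prph (0.65 and 1.01), which is also on the motor neuron list. Calca, the gene of calcitonin gene-related peptide, which motor neurons also make, read 6.25, 9.24, 7.85 and 6.25 with HDACi. With vehicle it read 10.14, 10.86, 6.39 and 8.80. Calcb, its relative, lay between 6.35 and 7.68, with a difference of -0.46 (unadjusted p = 0.0602 from limma) and a mean not above background. The purine receptor P2rx3, just above the background guide, lay between 7.05 and 7.35. The sodium channel Scn10a lay between 6.04 and 6.41, under the guide, where a change could not be seen.

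Some Schwann cell markers varied as widely, and others did not. Of 12 listed 10 were measured and 1 was above 0, with a median of -0.08. Their mean ran from 9.14 to 10.49 with HDACi and from 9.06 to 10.33 with vehicle. Periaxin (Prx), a protein of peripheral myelin, read 7.74, 9.88, 8.92 and 7.53 with HDACi. With vehicle it read 9.40, 9.73, 7.32 and 8.11. HDACi replicate 2 was high here and high for Atf3 and Reg3b. Among motor neuron markers, it was not the highest HDACi array for Slc18a3 or Slc5a7. It was the highest for Prph, at 9.83 against 8.41 to 9.45 on the other HDACi arrays. The Schwann cell mean gave r = 0.914 with Reg3b (exact permutation p = 0.00565, adjusted p = 0.0700; rho = 0.881, exact permutation p = 0.00724) and r = 0.841 with Atf3 (exact permutation p = 0.0156, adjusted p = 0.128; rho = 0.833, exact permutation p = 0.0154). Neither passed adjustment. Without HDACi replicate 2 and vehicle replicate 2 they were 0.836 and 0.800. The mean of the markers of dorsal horn and other neurons varied far less, from 10.85 to 11.10 with HDACi and 10.97 to 11.06 with vehicle. Of 17 measured, 6 were above 0, beside 42.1% of all genes. The 1 lower at an unadjusted p under 0.05, beside 4.96% of all genes, was Nefl, with -0.12 (unadjusted p = 0.0466 from limma). The mean of this list, which is not of the dorsal horn alone, was lowest on HDACi replicate 2. It gave r = -0.723 with Reg3b (exact permutation p = 0.0199, adjusted p = 0.141; rho = -0.833, exact permutation p = 0.0154). With Atf3 it gave r = -0.548 (exact permutation p = 0.151; rho = -0.786, exact permutation p = 0.0279). These relations did not pass adjustment either. The part of these cells in the members' values was not tested.

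**Figure D4:**
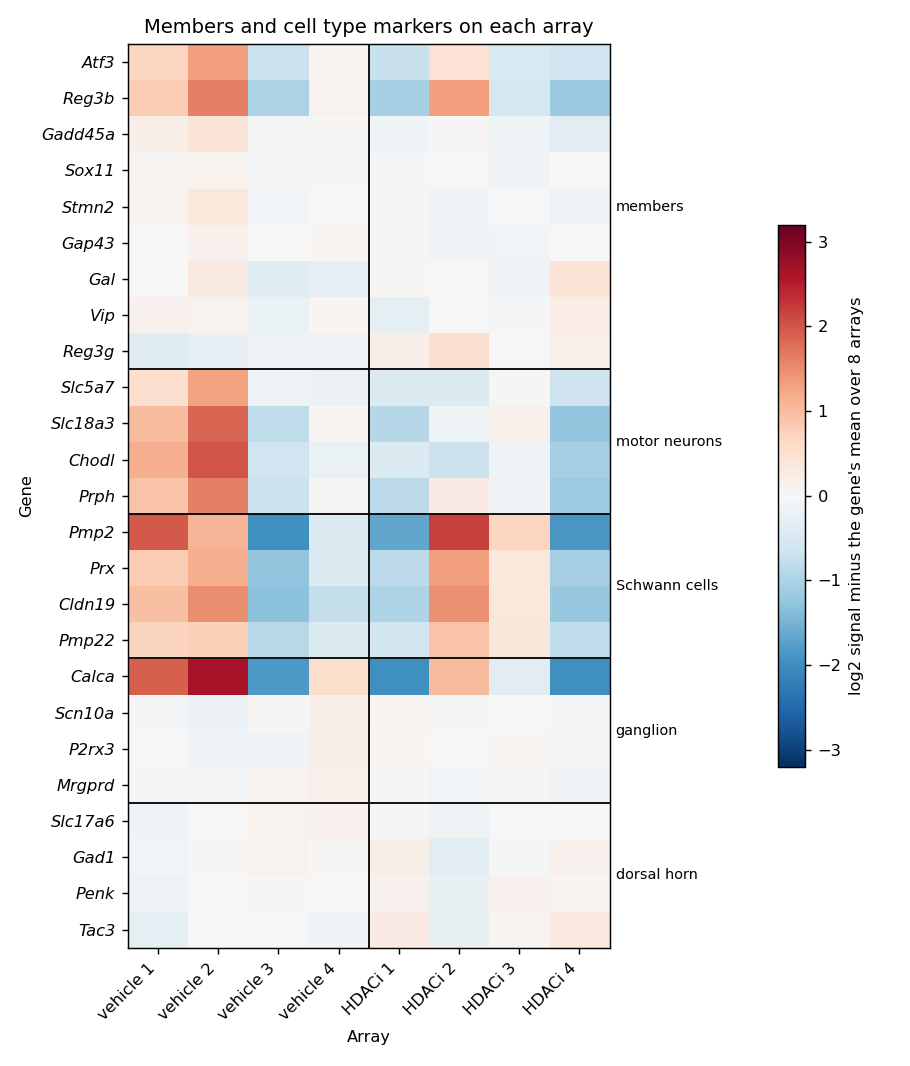
Log2 signal minus each gene's mean over the 8 arrays (colour) for the 9 members and for 4 markers each of motor neurons, Schwann cells, ganglion neurons and the dorsal horn, chosen after their values were seen (rows), on each array (columns). Atf3 and Reg3b share their high arrays, vehicle replicates 1 and 2 and HDACi replicate 2, with Prx, Cldn19, Pmp2, Pmp22, Calca and Prph, while Scn10a, P2rx3 and the dorsal horn markers stay near 0.

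Reg3g stood apart from this pattern. Its closest cell type list was that of macrophages and other leukocytes (r = 0.884, exact permutation p = 0.00404, adjusted p = 0.0572; rho = 0.810, exact permutation p = 0.0218), which did not pass adjustment and gave 0.554 without HDACi replicate 2 and vehicle replicate 1. Of 14 listed 13 were measured, 10 were above 0, beside 42.1% of all genes, and 7 were not above background. At an unadjusted p under 0.01, 2 of the 13 were called higher, beside 0.607% of all genes. F13a1, a coagulation factor subunit of macrophages, had a difference of 0.54 (unadjusted p = 0.00557 from limma) and Ly6c, a leukocyte surface protein not above background, 0.43 (unadjusted p = 0.00876 from limma). The list mean ran from 6.50 to 6.79 with HDACi and from 6.45 to 6.58 with vehicle. Its part in the Reg3g difference was not tested. Gal was closest to the astrocyte list (r = 0.824, exact permutation p = 0.0125, adjusted p = 0.115; rho = 0.786, exact permutation p = 0.0279), which failed adjustment too and gave 0.556 without vehicle replicate 3 and HDACi replicate 4.

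Of the remaining cell type lists, microglia had 9 of 10 measured markers above 0 (median 0.10), astrocytes 8 of 9 (0.05), oligodendrocytes 5 of 7 (0.05), leptomeninges and fibroblasts 8 of 11 (0.21), and endothelium and mural cells 10 of 11 (0.10), beside 42.1% of all genes above 0. Biglycan (Bgn), a matrix proteoglycan, was the 1 leptomeningeal gene higher at an unadjusted p under 0.01 (0.66, unadjusted p = 0.00404 from limma). Desmin (Des), the intermediate filament of muscle cells, was the 1 such gene of the mural cell list (0.67, unadjusted p = 0.000132 from limma). Each is 1 of 11 beside 0.607% of all genes, and for both the groups did not overlap. HDACi replicate 2, the array highest for Reg3g, was also the highest for leptomeninges, at 9.99 against 8.82 to 9.37 on the other arrays. It was highest for endothelium and mural cells, at 9.63 against 9.28 to 9.46. The Hox mean, lowest on the same array, gave r = -0.789 with Reg3g (exact permutation p = 0.0218, adjusted p = 0.143; rho = -0.667, exact permutation p = 0.0831), and -0.522 without HDACi replicate 2 and vehicle replicate 4. The part of these lists in the Reg3g difference was not tested, and without that array the difference was 0.34 (unadjusted p = 0.00159 from limma).

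Other genes of the injury programme gave few calls. Among 18 measured AP-1 and ATF/CREB partners of Atf3, 11 were above 0 and Junb alone passed at an unadjusted p under 0.01, with 0.26 (unadjusted p = 0.00417 from limma), beside 0.607% of all genes called higher. Fosl2 had 0.10, Fos 0.13 and Atf5 0.10, with groups that overlapped. Of 16 other transcription factors of regeneration 9 were above 0 and none passed. Egr1, an immediate early gene, had 0.24, Ankrd1, which is induced in axotomised neurons and lay near background, -0.42, Socs3, a brake on cytokine signalling, 0.15 and Cebpb 0.07.

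None of 20 growth cone and cytoskeleton genes passed, and their median was -0.01. The largest differences were those of peripherin (Prph), an intermediate filament of motor and sensory neurons, at -0.93 (standard error 0.48; unadjusted p = 0.0839 from limma), and Tubb3, at -0.26 (unadjusted p = 0.0626 from limma). The stathmins Stmn1 and Stmn3 had 0.04 and -0.04. None of 12 neuropeptides and receptors passed. Neurotensin (Nts) had 0.26, Npy, which sensory neurons make after injury, 0.19, and the galanin receptor Galr2 -0.13. Of 26 secreted factors, receptors and enzymes, 13 were above 0 and none passed. The oncostatin receptor Osmr had 0.24 (unadjusted p = 0.0398 from limma), Il6, near background, -0.19, Lifr -0.19 and Csf1, a microglial growth factor made by injured neurons, 0.19. Of 15 relatives and partners of Gadd45a 7 were above 0, and Perp, a target of p53, passed with 0.29 (unadjusted p = 0.00383 from limma), 1 of 15 beside 0.607% of all genes called higher. The cell cycle inhibitor Cdkn1a had 0.19, Pcna -0.11 and Ccng1 -0.09. No gene of these lists passed adjustment over all genes.

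**Figure D5:**
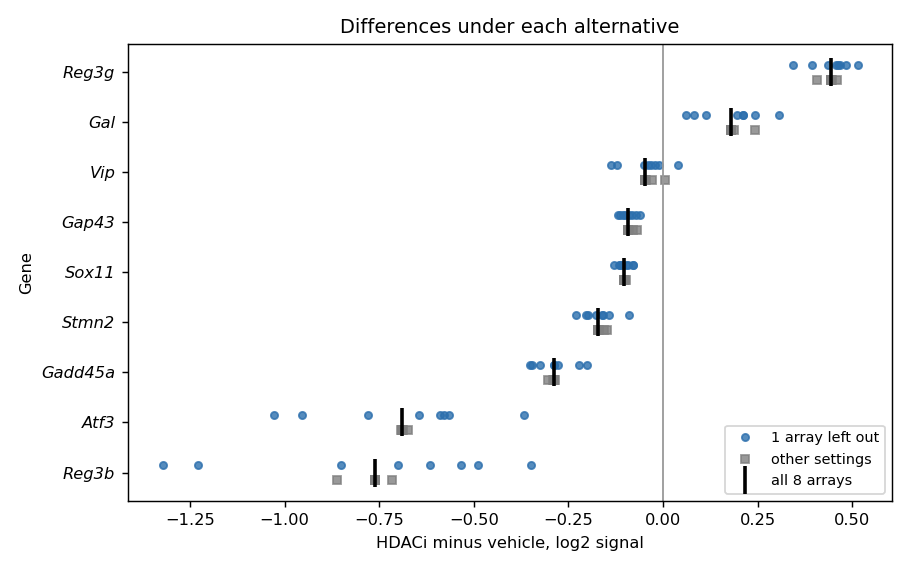
Difference in mean log2 signal, HDACi minus vehicle (x axis), for each gene with all 8 arrays (black bars), with 1 array left out (blue) and under the other settings (grey). Reg3g stays between 0.34 and 0.51, Reg3b runs from -1.32 to -0.35, and Vip alone crosses 0.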

How the data were processed

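RNA of the dorsal ipsilateral lumbar cord was hybridised to Affymetrix Rat Gene ST arrays, 1 per rat. The authors read the scans into R with oligo and applied RMA, and what they deposited are log2 values per probe set. Their versions are not given in the sources consulted. Groups and replicate numbers came from the sample titles. Symbols of 29214 probe sets came from the platform annotation and were updated by Entrez number through the RefSeq table of GRCr8: 15310 had 1 symbol, 323 several and 13581 none. Probe sets were averaged per gene, and HDACi and vehicle were compared on 14506 genes by moderated linear models (limma 3.58.1 under R 4.3.3), two-sided, without a filter or block, adjusted by the Benjamini-Hochberg method. The number of arrays limits the precision. Exact permutation tests were added for single genes and for correlations. The scripts were tested on simulated data. The genes and lists were chosen with earlier results of these data known. All measured members are named, as are the genes of each list under an unadjusted p of 0.01 or otherwise some of the 4 with the smallest p, and the 3 genes most correlated with each member above background. Further markers of motor neurons, ganglion and Schwann cells, and Npy, Csf1, Stmn1 and Snap25, were named after their values were seen. Alternatives covered the moderation, filters, normalization, weights, a replicate block and each array left out.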

Additional observations from a re-analysis of the deposited data

How the results depend on the processing

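Under the 18 alternatives 148 values of single members kept their direction and their side of the unadjusted p of 0.01, 3 newly passed it, 1 no longer passed and 2 reversed. The Vip difference reversed to 0.0052 with array quality weights and to 0.040 without HDACi replicate 1, and ran from -0.14 to 0.040 with each array left out. The Reg3g difference of 0.44 had an unadjusted p of 0.0112 without moderation in limma, and the adjusted p of Reg3g ran from 0.496 to 0.901 over the alternatives. Gadd45a passed under a further quantile normalization (unadjusted p = 0.00975 from limma), without HDACi replicate 2 (0.00966) and with the replicate block (0.00195). The study states no pairing of the arrays by replicate number. Correlations of deviations from the group means between arrays of 1 number were -0.27, 0.36, 0.04 and 0.06. These cannot show whether the arrays were paired. The block lowered the standard error of Atf3 from 0.40 to 0.22 (unadjusted p = 0.0159 from limma). It lowered that of Reg3b from 0.64 to 0.34 (unadjusted p = 0.0590) and raised that of Gap43 from 0.05 to 0.06 (unadjusted p = 0.165). With the block, 3 members had an unadjusted p under 0.05 and 66 genes were lower and 121 higher at an unadjusted p under 0.01, against 124 and 88 without it. Leaving out each array, members at an unadjusted p under 0.05 numbered from 1 to 5. The count was 1 without HDACi replicate 4 or vehicle replicate 2, and 5 without HDACi replicate 2 or vehicle replicate 3. Members above 0 numbered from 2 to 3. At an unadjusted p under 0.01, from 46 to 134 of all genes were higher and from 67 to 140 lower. At an unadjusted p under 0.05 the share of all genes was 7.75% with all 8 arrays. It was not counted under the alternatives, so the member counts given for them have no share to be set against. Above the median signal, Reg3g and 5 other members were not tested. There, 0 members had an unadjusted p under 0.05 and 1 was above 0. At an unadjusted p under 0.01, 55 of the 7253 genes kept were higher, a smaller total than the 14506 of the main fit. Above the 25th percentile 1 member was above 0. The fit of probe sets called 199 of 29214 probe sets higher, where the main fit called 88 of 14506 genes. Of 14506 genes, the fit without moderation called 193 lower, quantile normalization 148 higher and centring 82 lower. The share of calls that were higher was 41.5%, but 59.7% after quantile normalization and 59.8% after centring. The causes were not tested. With 4 arrays a group, differences of the size of the intervals given could pass unnoticed.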
